A study of Mus musculus with 8 samples.

Results

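Parvalbumin, encoded by Pvalb (ENSMUSG00000005716), is 1 gene of the 42416 counted in RNA sequencing libraries of sorted mouse distal convoluted tubule fragments, and 1 of the 14268 that held enough counts for a comparison. It was chosen by name, with its difference between the genotypes already known, so its level is described here without a test. The study compared 4 libraries labelled Control with 4 labelled KO, in which calcineurin was to be deleted in the distal convoluted tubule. Control animals were Cnb1fl wt and KO animals were Cnb1fl Tg/Tg. Cnb1 is another name of Ppp3r1, the regulatory B subunit of calcineurin, the calcium-activated phosphatase blocked by the drugs tacrolimus and cyclosporine. Both groups carried NCCcre Tg/+, a Cre recombinase named after the NaCl cotransporter of this segment, and TOMATO Tg/+, a fluorescent reporter. To induce the Cre, every animal was given 2 mg of tamoxifen daily by gavage over 5 days, and tissue was taken 3 weeks afterwards. Each library was made from 1000 fragments, so any other cells on a fragment would be sequenced with it. The labels used here give no age, sex or strain, and do not say whether each library came from its own animal.

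Parvalbumin is a small cytosolic protein of the EF-hand family, whose helix-loop-helix motifs hold calcium and, in resting cells, magnesium. It buffers brief calcium rises in fast skeletal muscle fibres and in a class of inhibitory neurons. In the mouse kidney it is found in the early part of the distal convoluted tubule, where it serves as a marker, while the late part and the connecting tubule carry calbindin (Calb1) and the machinery of calcium reabsorption. The early part reabsorbs NaCl through the cotransporter Slc12a3 and magnesium through the channel Trpm6.

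In GRCm38 with the GENCODE vM21 annotation, Pvalb lies at chr15:78191114-78206400 on the minus strand and has 2 protein-coding transcripts that share their last 4 exons in whole or in part. One starts at position 78206400 with a noncoding first exon, and the other starts at 78204237, inside the first intron of the longer one. The 2 stretches of 250 bases before these starts are shown because the counts are per gene and do not tell which start was used. They are from RefSeq on GRCm38.p6, minus strand, read 5′ to 3′ and ending at the base before the start. Capitals mark TATTTAA, an AT-rich run of the kind found in TATA boxes.
Before the distal start, chr15:78206401-78206650: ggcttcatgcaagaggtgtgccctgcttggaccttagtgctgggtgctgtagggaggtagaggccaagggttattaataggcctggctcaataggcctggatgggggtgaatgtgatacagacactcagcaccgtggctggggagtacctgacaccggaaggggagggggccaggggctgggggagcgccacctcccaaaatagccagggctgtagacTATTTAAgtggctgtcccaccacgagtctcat
Before the proximal start, chr15:78204238-78204487: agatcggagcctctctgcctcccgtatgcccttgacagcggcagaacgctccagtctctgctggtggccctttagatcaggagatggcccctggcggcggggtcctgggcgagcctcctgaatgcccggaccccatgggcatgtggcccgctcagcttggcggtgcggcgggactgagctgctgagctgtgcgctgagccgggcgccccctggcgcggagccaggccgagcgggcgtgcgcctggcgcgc
The run TATTTAA begins 32 bases before the distal start and is not found in the proximal stretch. Over both strands and at any position, 4.18% of 32851 mouse stretches of this length hold this exact run. Other TATA-like runs, and the distance of a run from the start, were not counted. The letters GGAAA, the core of sites bound by the calcineurin-dependent NFAT factors, are in neither stretch on either strand, and 55.6% of all stretches hold them. G and C made up 58.4% of the distal and 71.6% of the proximal stretch. No annotated gene overlaps Pvalb, so its counts are not shared with an overlapping gene.

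Pvalb was abundant and variable in Control and close to absent in KO. In Control replicates 1 to 4 it held 20250, 7420, 7293 and 9675 counts. In KO replicates 1 to 4 it held 104, 46, 54 and 30 counts. Total counts per library ran from 18161442 to 45150953, with the deepest library in KO. In CPM, which scale the counts to a common library size, Control replicates 1 to 4 held 987, 179, 381 and 485. On the same scale KO replicates 1 to 4 held 2.14, 1.77, 2.12 and 1.504. The groups did not overlap, and the lowest Control library stood 83.5-fold above the highest KO library. The Control mean was 508 ± 344 CPM and the KO mean 1.89 ± 0.305 CPM (SD, 4 libraries each), a 269-fold difference. The fitted log2 fold change of KO over Control was -8.06. It lay between -8.34 and -7.51 when each library was left out in turn, the latter without Control replicate 1. What was left in KO was 0.296% to 0.421% of the Control mean.

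**Figure D1:**
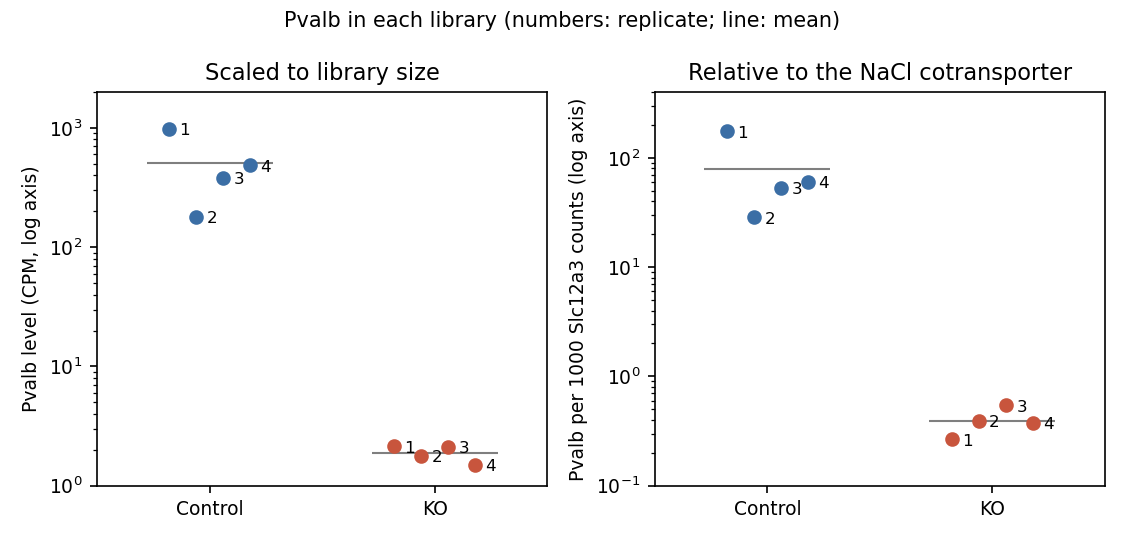
Pvalb in each library, on log axes: left, level in CPM; right, Pvalb counts per 1000 counts of the NaCl cotransporter gene Slc12a3 in the same library. Points are libraries numbered by replicate and lines are group means; all 4 Control libraries (179 to 987 CPM) lie above all 4 KO libraries (1.504 to 2.14 CPM) on both scales.

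The spread of Pvalb among libraries was wide in Control and narrow in KO. Its coefficient of variation was 67.7% in Control and 16.2% in KO. In KO the 234 counts were spread over the 4 libraries about as counting alone would spread them, with a chi-square of 1.25 per degree of freedom, and the 95% Poisson intervals of the KO levels (1.01 to 2.15 CPM in replicate 4, 1.75 to 2.59 CPM in replicate 1) overlapped. These intervals cover counting error only. In Control the same statistic was 6869, and the level ran over a 5.53-fold range. Of 9339 genes with at least 10 CPM in Control, 48, or 0.514%, had a larger coefficient of variation there.

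The Control libraries ranked 1, 4, 3 and 2 from the highest Pvalb to the lowest. This order was shared by 8.56% of all tested genes and by none of the 10 genes listed as early. Of the 32 tested EF-hand genes described below, 22, or 68.75%, were highest in Control replicate 1, as were 37.9% of all tested genes. The summed level of 8 proximal tubule markers, such as the phosphate transporter Slc34a1 and the endocytic receptor Lrp2, ran the opposite way, with sums of 1785, 6302, 5345 and 3716 CPM over Control replicates 1 to 4. The list was 1 of 13 summed in this way. Of its 8 members, 4 were each in exactly the reverse order of Pvalb, as were 9.97% of all tested genes. In the KO libraries the proximal sum ran from 1580.4 to 3684 CPM while Pvalb stayed near 2 CPM. The part of proximal tubule RNA in the Control spread was not tested.

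Pvalb was also read against genes of the same segment. Per 1000 counts of Slc12a3, Control replicates 1 to 4 held 175, 28.4, 53.3 and 60.3 Pvalb counts, and the KO replicates held 0.265, 0.392, 0.543 and 0.378. The means were 79.2 ± 65.2 and 0.395 ± 0.114 (SD, n = 4 each), a 201-fold difference. Per 1000 counts of Calb1, the late-segment calbindin that itself was lower in KO, the means were 152 ± 76.7 and 5.09 ± 3.40, a 29.8-fold difference. In bulk RNA of this kind, fewer Pvalb-positive cells and less Pvalb RNA per cell cannot be told apart.

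The libraries fall into sets by the first 3 digits of the number in their titles and by whether the file name carries an index sequence. What these sets stand for is not stated. The title numbers starting 728 held 2 Control and 3 KO libraries, with mean levels of 279.8 and 1.80 CPM, a log2 ratio of -7.28. Those starting 723 held 1 library of each group, with a log2 ratio of -8.85, and the number starting 726 belonged to a single Control library. Within the 3 Control and 3 KO libraries without an index in the file name the log2 ratio was -8.42, and between the pair with one it was -6.38. In every set that held both groups, Pvalb was lower in KO, which had to follow because the groups did not overlap. The Control levels differed between sets, at 987 CPM for 723 (replicate 1), 485 for 726 (replicate 4), and 381 and 179 for 728 (replicates 3 and 2). Control replicate 2, the lowest, was also the Control library with an index in its file name and the deepest Control library (42389558 counts). The part of these sets and of depth in the Control spread was not tested.

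Among all tested genes, Pvalb took an extreme place. One gene, Colq, with a mean of 5.44 CPM in Control, had a lower fitted fold change (-8.70). Among the 9339 genes with at least 10 CPM in Control, Pvalb was the lowest, followed by the serine protease gene Htra4 at -5.05, and among the 1736 genes with at least 100 CPM the next was the immediate early factor gene Nr4a1 at -3.19, which did not pass the test described below (adjusted p = 0.348 by edgeR). Per kilobase of exon, Pvalb stood at 488 ± 330.5 CPM per kb in Control (SD, n = 4), 81st of all tested genes by its mean, and at 1.81 ± 0.293 in KO, where it was 10113th. On this scale its Control level differed by less than its own spread from Slc12a3 (610.0 ± 94.0), Calb1 (649 ± 177) and the growth factor gene Egf (616 ± 89.3). Trpm6, at 28.7 ± 5.45, was well below them. S100g, the small vitamin D-dependent calbindin, was at 11611 ± 5298, with all 4 of its libraries above the highest Pvalb library. The lengths take in all annotated exons, 11119 bases for Slc12a3, 11275 for Egf, 4846 for Calb1 and 1041 for Pvalb. Where the transcripts in use are shorter than that, this scale understates the gene, so likeness between genes on it is approximate.

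**Figure D2:**
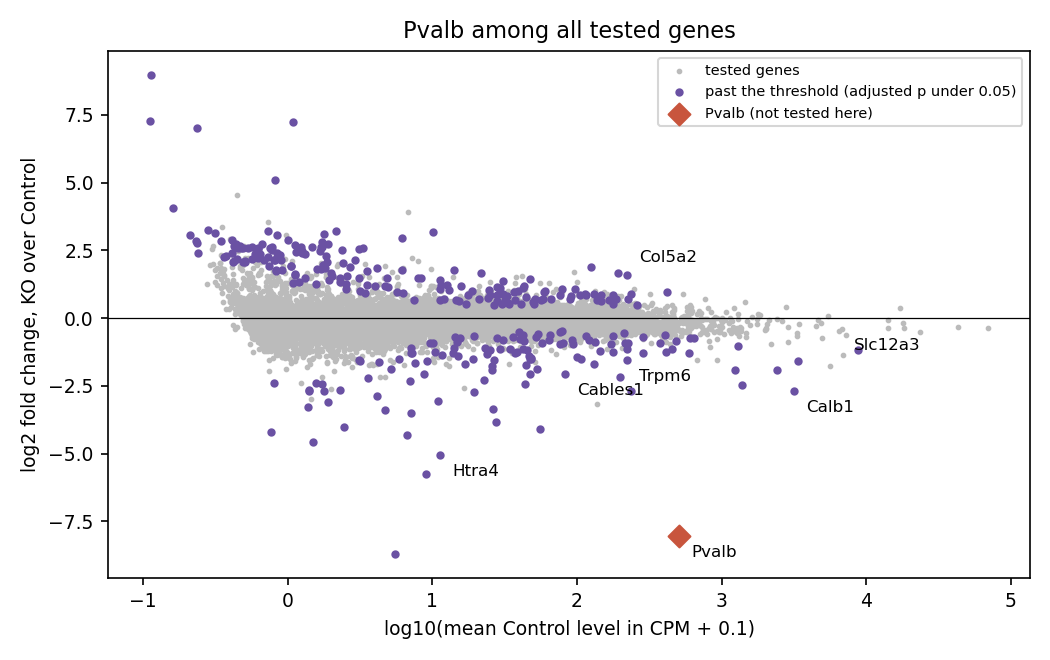
Every tested gene by mean Control level (horizontal, log10 of CPM + 0.1) and fitted log2 fold change of KO over Control (vertical). Purple points passed an adjusted p of 0.05 by edgeR; Pvalb, the diamond at -8.06, lies below every other gene with a Control mean of at least 10 CPM.

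Other genes were compared between the groups by edgeR's quasi-likelihood test over all 14268 genes, with Benjamini-Hochberg adjustment and a threshold of 0.05. At this threshold 2.21% of all tested genes passed, 0.876% lower and 1.34% higher in KO. All KO libraries lay below all Control libraries in 3.83% of genes and above them in 5.61%. At an unadjusted p under 0.05, 6.15% of all tested genes were lower and 7.79% higher, and by DESeq2 at an adjusted p under 0.05, 2.29% were lower and 2.96% higher. The p-values measure only the spread between these libraries, which may in part be technical. The targeted gene Ppp3r1 gives no check of the labels. Its mean was 97.4 ± 9.87 CPM over the Control and 86.2 ± 10.8 CPM over the KO libraries (SD), and the groups overlapped (log2 -0.18 ± 0.13 (SE), adjusted p = 0.548 by edgeR). Its counts cover the whole gene, and Wdr92, which overlaps it on the same strand, held 27.6% as many counts. The KO libraries are therefore called KO by their labels alone.

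Most other genes listed as early did not pass the test. Of 10 early-segment genes, all tested, 2 rose, 1 fell and 7 did not pass. Over all tested genes 1.34% rose and 0.876% fell at this threshold. At an unadjusted p under 0.05 by edgeR, 4 were higher and 2 lower, against 7.79% and 6.15% of all tested genes. Every KO library lay above every Control library in 3 of the 10 and below in 2, against 5.61% and 3.83%. The 10 genes summed to 17319 to 19979 CPM in Control and 7553 to 12592 CPM in KO, with Umod and Egf the largest members. The median log2 fold change of the 10 was 0.29, against -0.02 over all tested genes. Col5a2, a fibrillar collagen chain, held 269, 238, 227 and 152 CPM in the Control libraries and 570.3, 913, 571 and 636 CPM in the KO libraries. It rose by 1.60 ± 0.21 on the log2 scale (SE, adjusted p = 0.00988 by edgeR), with every KO library above every Control library, and kept its call in every other setting but the one with a term for the title numbers (adjusted p = 0.0578). Trpm7, a channel fused to a kinase that admits magnesium and calcium, rose from a mean of 416 ± 53.7 CPM to 806 ± 116 CPM (SD). The log2 difference was 0.95 ± 0.15 (SE, adjusted p = 0.0157 by edgeR), and its call was lost with the title term (adjusted p = 0.097) and when Control replicate 4 (0.0628) or KO replicate 2 (0.055) was left out.

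Umod encodes uromodulin, the most abundant protein of normal urine, made mainly in the thick ascending limb and also in the early distal convoluted tubule. The Control libraries held 9356, 6028, 8901 and 10962 CPM and the KO libraries 4545, 4039, 4424 and 2427 CPM, each below every Control library. Umod fell by 1.19 ± 0.25 on the log2 scale (SE, adjusted p = 0.041 by edgeR). The call was lost in 9 of 16 other settings, among them the removal of any 1 library other than Control replicate 2 or KO replicate 3, with adjusted p-values up to 0.158. Thick ascending limb markers such as the cotransporter Slc12a1 summed to 851 to 1524 CPM in Control and 413 to 1138 CPM in KO, with none of 7 past the threshold by edgeR or DESeq2 and 1 lower at an unadjusted p under 0.05, as were 6.15% of all tested genes. Their part in the Umod difference was not tested.

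Egf, the precursor of epidermal growth factor, was lower in every KO library (1303 to 4263 CPM, against 5852 to 7801 CPM in Control). Its log2 fold change of -1.36 ± 0.31 missed the threshold by edgeR (adjusted p = 0.0552) and passed it by DESeq2 (adjusted p = 0.000254). Erbb4, a receptor of the same growth factor family, had a log2 fold change of 0.42 ± 0.18 (SE, edgeR adjusted p = 0.325). The prostaglandin F receptor gene Ptgfr had 0.44 ± 0.16, the retrotransposon-derived gene Rtl4 0.58 ± 0.35, the lipid transporter gene Abca13 0.15 ± 0.19, Fgf13, an intracellular partner of sodium channels, 0.11 ± 0.23 and the kinase gene Stk32b -0.32 ± 0.29. None of these 6 passed the threshold, though every KO library held more Ptgfr than every Control library, as in 5.61% of all tested genes. The early list thus ran from -1.36 to 1.60 beside -8.06 for Pvalb.

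**Figure D3:**
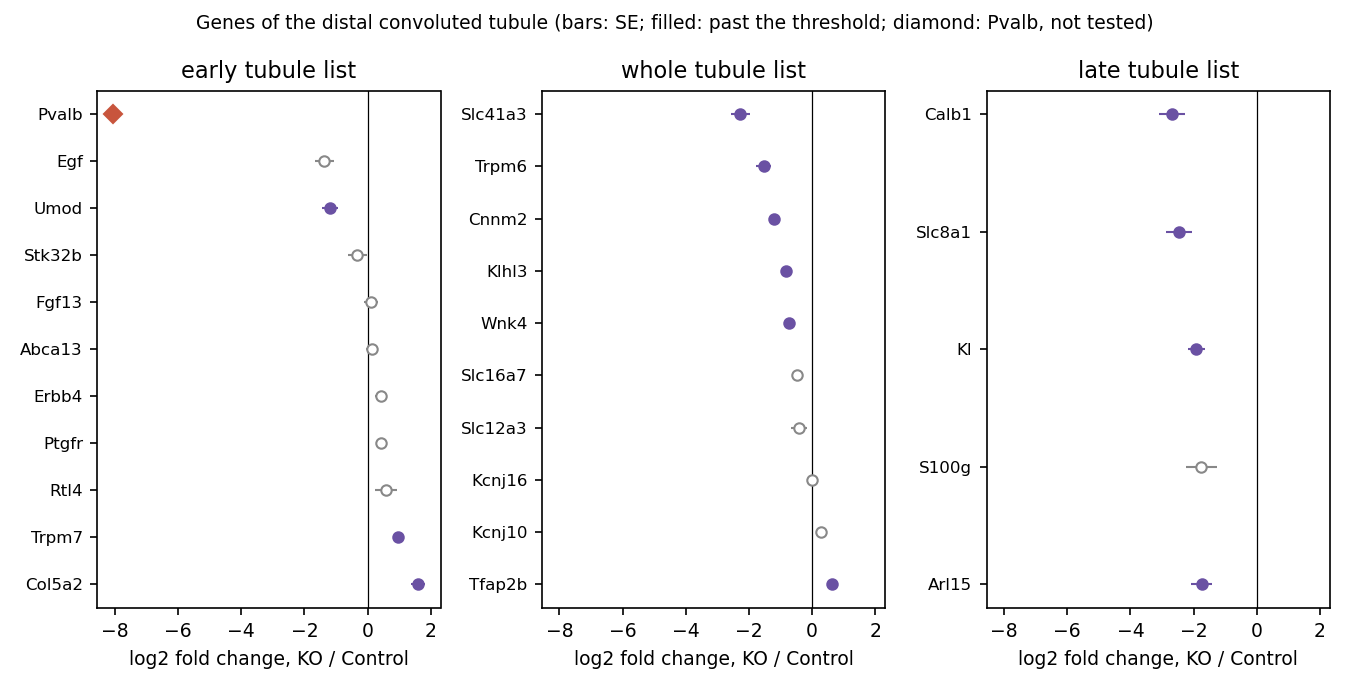
Fitted log2 fold change of KO over Control (horizontal) for the genes named in the text from the early (all 10 tested), whole (10 of 18) and late (5 of 15) distal convoluted tubule lists, with bars of 1 SE. Filled points passed the threshold and open points did not; Pvalb, the diamond at -8.06, lies far to the left of the early list, whose members run from -1.36 to 1.60.

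Of 18 genes of the whole distal convoluted tubule, 1 rose, 5 fell and 12 did not pass, with a median of -0.32. At an unadjusted p under 0.05 by edgeR, 2 were higher and 8 lower, against 7.79% and 6.15% of all tested genes. The magnesium transporter gene Slc41a3 had the lowest fold change, -2.27 ± 0.31 (SE, adjusted p = 0.00988 by edgeR), with every KO library (4.46 to 5.08 CPM) below every Control library (10.03 to 33.5 CPM). It was followed by the magnesium channel gene Trpm6 at -1.53 and by Cnnm2, which takes part in basolateral magnesium transport, at -1.21. Klhl3 and Wnk4, parts of the system that sets cotransporter activity, stood at -0.83 and -0.74, and the transcription factor gene Tfap2b was higher, at 0.63. The number of lower genes was 1 with the title term, and 2 or 1 when Control replicate 4 or KO replicate 2 was left out. Cnnm2 passed in all 16 other settings, while Wnk4 lost its call in 13 of them and Tfap2b in 8. Slc12a3 itself did not pass (-0.41 ± 0.25, edgeR adjusted p = 0.49), nor did the potassium channel genes Kcnj10 (0.27 ± 0.13) and Kcnj16 (0.01 ± 0.12).

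Of 16 genes listed as late, 15 were tested, 4 fell, 0 rose and 11 did not pass, with a median of -0.76. Fold changes ran from -2.68 to 0.49, and 10 of the 15 were below 0. At an unadjusted p under 0.05 by edgeR, 9 were lower and 1 higher, against 6.15% and 7.79% of all tested genes. By DESeq2, 7 were lower and 1 higher, against 2.29% and 2.96%. The 16 genes summed to 22276 to 42560 CPM in Control and 19761 to 38130 CPM in KO. Calb1 held 3749, 2019, 2939 and 3879 CPM in the Control libraries and 215, 566, 873 and 310.3 CPM in the KO libraries. It fell by 2.68 ± 0.42 on the log2 scale (SE, adjusted p = 0.0155 by edgeR; 0.0596 without Control replicate 4 and 0.0611 without KO replicate 2). The sodium-calcium exchanger gene Slc8a1 (-2.46), the klotho gene Kl (-1.91) and Arl15 (-1.74), a small GTPase that binds CNNM proteins, were the others that fell. The lower calls numbered 0 with the title term, 0 when KO replicate 2 was left out, 1 when Control replicate 4 was, and 2 when Control replicate 3 or KO replicate 4 was. The 6 connecting tubule and principal cell markers, such as the water channel gene Aqp2, summed to 267 to 416 CPM in Control and 116 to 274 CPM in KO, with 0 past the threshold by edgeR, 2 lower by DESeq2 and 6 lower at an unadjusted p under 0.05, where 6.15% of all tested genes were lower. Their part in the late-segment differences was not tested. Whether Pvalb differed more than these genes was not tested, since it was chosen for its difference. In the KO libraries Calb1 kept a mean of 491 ± 295 CPM, and Pvalb 1.89 ± 0.305 CPM (SD).

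Pvalb was also set beside other cytosolic EF-hand proteins. Of 51 listed, 32 were tested, 1 rose, 2 fell and 29 did not pass, and the median was -0.01. At an unadjusted p under 0.05 by edgeR, 6 were higher and 4 lower, against 7.79% and 6.15% of all tested genes. Calb1 and Hpcal1, a neuronal-type calcium sensor, fell. Hpcal1 held 140.3, 109, 94.9 and 117 CPM in the Control libraries and 63.8, 80.4, 78.9 and 69.2 CPM in the KO libraries (log2 -0.66 ± 0.14, adjusted p = 0.047 by edgeR). It lost its call in 12 of 16 other settings (adjusted p up to 0.183), among them the removal of any 1 library except KO replicate 3. S100a6, which marks proliferating and injured epithelium, rose from 0.983 ± 0.439 CPM to 146 ± 220 CPM (SD), by 7.22 ± 1.39 on the log2 scale (SE, adjusted p = 0.0308 by edgeR). It was uneven, with 472 CPM in KO replicate 4 against 4.52 to 81.3 in the other KO libraries, and its log2 difference without that library was 5.23. Its call was lost by limma-voom, with the title term, and when KO replicate 2 or any 1 Control library was left out (adjusted p from 0.0762 to 0.375).

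Some EF-hand genes were at or close to 0. Ocm, oncomodulin, the other parvalbumin form of mammals, had 1 count over all 8 libraries. Calb2, calretinin, had 0 counts in every library, which allows up to 3 counts or 0.0617 to 0.157 CPM per library. S100g was lower in every KO library, with 664 to 2699.8 CPM in KO against 3358 to 8876 CPM in Control, and did not pass by edgeR (-1.75 ± 0.49, adjusted p = 0.125) but passed by DESeq2 (adjusted p = 0.0374).

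Markers of fast skeletal muscle, the other tissue rich in parvalbumin, were close to absent. Of 10, 5 had no count in any library, among them the creatine kinase gene Ckm and the fast myosin gene Myh4. All 10 together summed to 1.28 to 2.68 CPM in Control and 0.781 to 3.76 CPM in KO, against 179 to 987 CPM for Pvalb in Control. Leukocyte markers summed to 10.1 to 12.98 CPM in Control and 20.03 to 76.7 CPM in KO, with 0 of 5 tested past the threshold by edgeR, 3 higher by DESeq2 and 3 higher at an unadjusted p under 0.05, against 2.96% and 7.79% of all tested genes. Intercalated cell markers summed to 518 to 724 CPM in Control and 458 to 869 CPM in KO, and endothelial and stromal markers to 17.2 to 33.4 CPM and 5.81 to 37.7 CPM. By edgeR 0 of the 14 tested among these passed, with 1 intercalated marker higher and 1 endothelial or stromal marker lower at an unadjusted p under 0.05, the latter count also by DESeq2. Over all tested genes these unadjusted shares were 7.79% higher and 6.15% lower. The part of these markers in the Pvalb difference was not tested.

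Regulators studied for parvalbumin expression elsewhere were measured as well. The coactivator PGC-1α, encoded by Ppargc1a, is needed for normal parvalbumin levels in inhibitory neurons. The Control libraries held 109, 159, 179 and 181 CPM and the KO libraries 187, 139, 173 and 184 CPM, with overlapping groups. The log2 difference was 0.12 ± 0.18 (SE, adjusted p = 0.77 by edgeR), and it was -0.025 without Control replicate 1. Of the 10 tested genes of this list, with the estrogen-related receptors, MEF2 factors and Six4, 0 passed by edgeR, DESeq2 or limma-voom, and 1, Esrrb, was lower at an unadjusted p under 0.05 (-0.42 ± 0.18). Of 14 tested calcineurin and NFAT genes, 0 passed by edgeR, DESeq2 or limma-voom and 0 had an unadjusted p under 0.05. The edgeR threshold was passed by only 2.21% of the whole tested set, so 0 calls among 10 or 14 genes says little about either list. Before adjustment, the edgeR shares of the whole set were 6.15% on the lower side and 7.79% on the higher side.

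None of the tested genes around Pvalb on chromosome 15 passed the test. The annotation places 40 genes within 500 kb, of which 10 were tested. Among the untested was Csf2rb2, a cytokine receptor subunit gene 76107 bases upstream, noted after its values were seen. It held 0, 0.048, 0 and 0 CPM in the Control libraries and 0.699, 4.24, 0.157 and 19.1 CPM in the KO libraries, each above every Control library. Of the 10 tested, 0 were lower and 0 higher by edgeR, as by DESeq2 and limma-voom. Over all tested genes the edgeR shares were 0.876% and 1.34%, so 0 calls among 10 genes says little about the region. Only 1, the mitochondrial thioredoxin gene Txn2, had an unadjusted p under 0.05 (-0.38 ± 0.16), where 6.15% of all tested genes were lower. The fold changes ran from -0.54 for the predicted gene Gm36738 to 0.20 for the nonmuscle myosin gene Myh9. Ift27, a small GTPase of ciliary transport that lies 17007 bases beyond the 3′ end of Pvalb, held 24.5, 13.7, 14.8 and 16.2 CPM in the Control libraries and 13.4, 15.9, 12.5 and 16.4 CPM in the KO libraries (log2 -0.25 ± 0.19, edgeR adjusted p = 0.578). Its groups overlapped, and its highest level, like that of Pvalb and of 37.9% of all tested genes, was in Control replicate 1. Tst, a sulfur transferase and the nearest tested coding gene on the upstream side, had -0.36 ± 0.17 (edgeR adjusted p = 0.375).

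**Figure D4:**
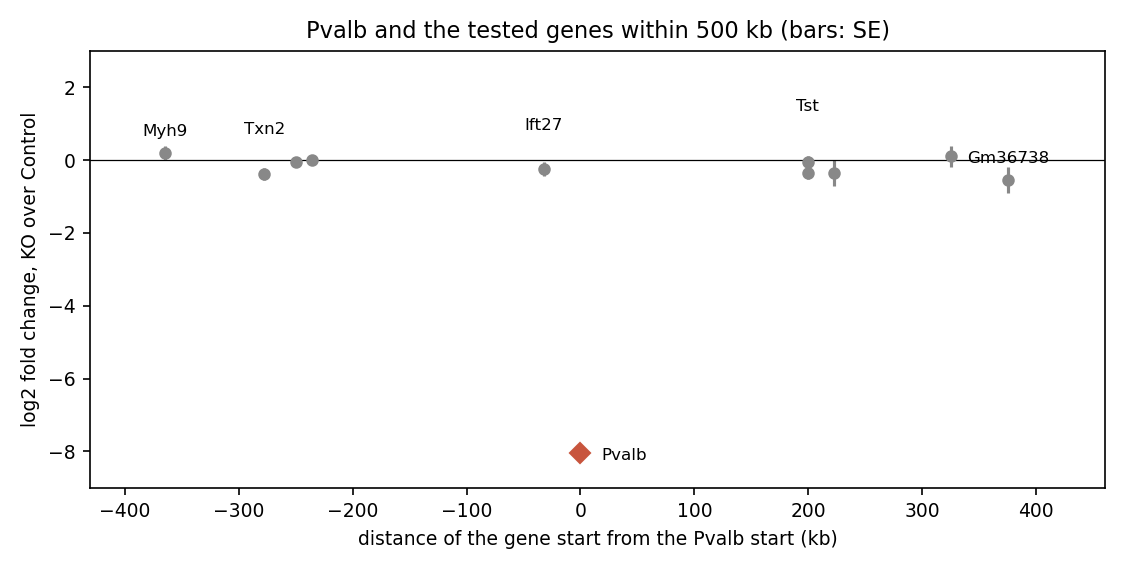
Fitted log2 fold change of KO over Control (vertical, bars of 1 SE) of the 10 tested genes within 500 kb of Pvalb, by distance of their start from the start of Pvalb (horizontal, kb, with the upstream side of Pvalb to the right). Genes named in the text are labelled; the neighbours lie between -0.54 and 0.20 and Pvalb, the diamond, at -8.06.

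The genes whose levels ran most like those of Pvalb were found by Pearson's r over the 8 libraries on log2(CPM + 1), among 8968 named genes with at least 10 CPM in Control. Since Pvalb is low in all KO libraries, this measure favours any gene that is cleanly lower in KO, so the direction of the genes it finds is set by the choice. The median r of all candidates was 0.02, and 96, or 1.07%, reached 0.90. The highest was Cables1, an adaptor of cyclin-dependent and Abl kinases, with an r of 0.9975 and a Spearman rho of 0.905. Cables1 held 108, 64.9, 75.3 and 80.8 CPM in the Control libraries, in the same order as Pvalb, and 20.3, 19.2, 18.2 and 20.3 CPM in the KO libraries. The group means were 82.2 ± 18.3 and 19.5 ± 1.01 CPM (SD), a log2 difference of -2.07. Gm6277, which overlaps Cables1 on the opposite strand, held 10.1% as many counts.

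The next were Tdrd3 (r = 0.987), a Tudor-domain scaffold of a topoisomerase, the RNA-binding protein gene Larp1b (0.986), the lymphatic growth factor gene Vegfd (0.984), Rabgef1 (0.981), an activator of Rab5, and Afm (0.980), a vitamin E-binding plasma protein of the albumin family. Htra4 (0.978), the monocarboxylate transporter gene Slc16a7 (0.975), the autophagy gene Becn1 (0.972) and Phyhip (0.970) completed the 10. Their fold changes were much smaller than that of Pvalb, from -0.49 for Slc16a7 to -2.07 for Cables1, with the exception of Htra4 at -5.05. Htra4 held 19.7, 3.63, 8.52 and 12.8 CPM in the Control libraries, again in the order of Pvalb, and 0.144 to 0.590 CPM in the KO libraries. The Control order of Pvalb was shared by 4 of the 10, Cables1, Tdrd3, Rabgef1 and Htra4, which the choice by r also favours. Among genes of the segment, r was 0.932 for Calb1, 0.910 for Trpm6, 0.829 for Egf and 0.561 for Slc12a3, which ranked 1307th.

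**Figure D5:**
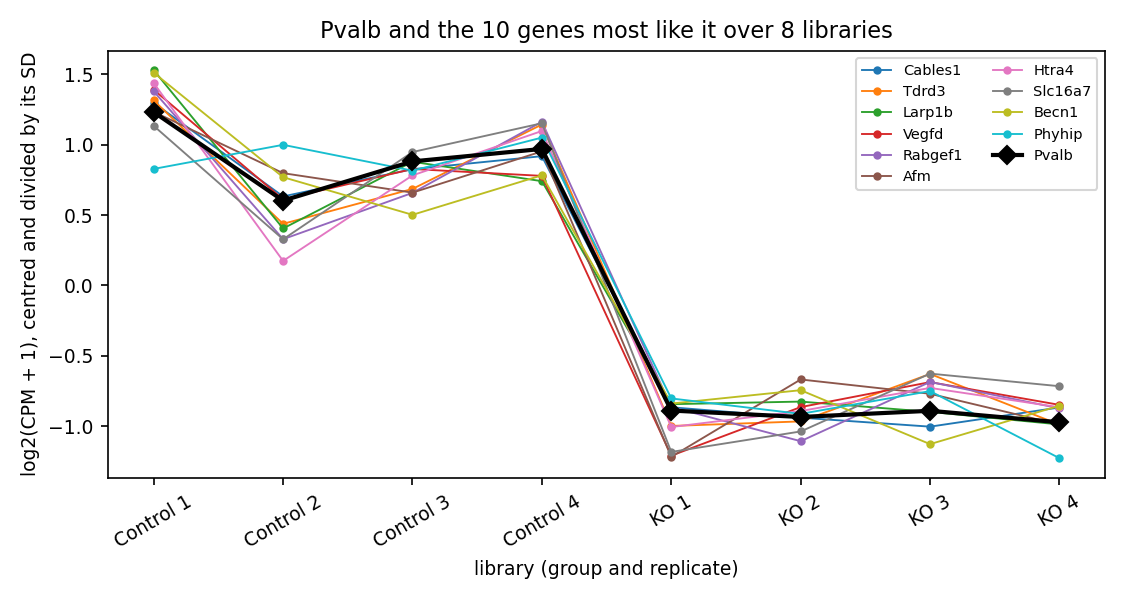
Levels of Pvalb (black diamonds) and of the 10 genes most like it in each of the 8 libraries, as log2(CPM + 1) centred on the gene's mean and divided by its SD. Lines join the values of a gene for reading only; all 11 genes are higher in every Control library than in every KO library, and Pvalb is highest in Control replicate 1 and lowest among Controls in replicate 2.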

How the data were processed

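The authors deposited raw read counts, 1 file per library, with a whole number for each Ensembl identifier. The genome build was GRCm38.p6 and the tools named are STAR 2.7.4a, fastp 0.20.0 and bcl2fastq 2.20, all per the submitters' processing notes. Which program counted the reads, with which annotation release and strand setting, is not given in the sources used here. Groups are the genotype labels, and replicate numbers follow the order of deposit and pair nothing. Pvalb, the gene lists and the tests were chosen with earlier results of these data known. Names and coordinates are from GENCODE vM21 (GRCm38), in which 42347 of 42416 identifiers had a name; where a symbol had several, the one with most counts was used.

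Genes were kept by filterByExpr, scaled by TMM and compared with edgeR 4.0.16 (quasi-likelihood F test, two-sided, genotype only, all 8 libraries, R 4.3.3). The SE of a log2 fold change is the change divided by the square root of F. CPM use TMM-scaled library sizes; CPM per kb divides by the union of annotated exons. Alternatives were DESeq2 1.42.0, limma-voom 3.58.1, other scalings and filters, leaving out each library, and adding a term for the title number or for an index in the file name. The test was tried on simulated counts of 14084 genes, in which only a sample of well-counted genes was given known changes. Of the changed genes it recovered 17.9% at 1.5-fold, 70.1% at 2-fold and 100% at 4-fold. Changes in genes with low counts were not simulated. Libraries of a group were compared in pairs and all differed by more than counting noise (chi-square per degree of freedom of 34.1 or more).

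The genes named are Pvalb and 10 set by name, the list members past the threshold (at most 6 by p, or 2 if none), the 10 most like Pvalb and the nearest tested coding gene on each side; other list members named in the text were chosen after their values were seen, as were Colq, Nr4a1, Csf2rb2, Txn2, Myh9, Gm36738 and Gm6277.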

Additional observations from a re-analysis of the deposited data

Results flagged for a closer look

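In groups of 4 libraries, 1 library stood far from the other 3 (Dixon's test at the 95% level, critical value 0.829) in 4 of 68 groups examined, where chance gives about 1 in 20. Slc12a3 was at 8074 CPM in KO replicate 1, while its 3 fellow KO libraries held 3911 to 4521 CPM. The ratio of Pvalb to Slc12a3 was lowest in that library. Arl15 was at 24.3 CPM in KO replicate 3, against 8.80 to 10.95. S100a6 was at 472 CPM in KO replicate 4, against 4.52 to 81.3. Tdrd3 was at 75.1 CPM in KO replicate 3, against 66.96 to 67.6. Pvalb itself was not among them in either group.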

How the results depend on the processing

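The log2 fold change of Pvalb was negative in all 16 other fits, a sign that follows from groups that did not overlap. It lay between -8.34 and -7.51, at -7.77 with a term for the title numbers, -7.88 with a term for the file name and -7.65 per Slc12a3 counts. The number of genes past the threshold, a different measure from a fold change, depended on the setting. In all, 316 genes passed by edgeR, 749 by DESeq2, 178 by limma-voom, 140 with at least 5 CPM in 4 libraries, 199 with the file-name term, 29 with the title-number term, and 36 to 388 without 1 library. With library totals as the scale, the median over all genes was 0.13 in place of -0.02 and 242 genes were higher and 90 lower, against 191 and 125. Lower calls in the early list were 1, against 2 by DESeq2 and with no filter, 0 with at least 5 CPM and with either term, and 0 to 2 without 1 library. In the late list they were 4, against 7 by DESeq2 (which also called 1 higher, against 0), 0 with the title-number term and 0 to 5 without 1 library. In the whole-segment list they were 5, against 8 by DESeq2, 1 with the title-number term and 1 to 4 without 1 library. In the EF-hand list they were 2, against 3 by DESeq2 (which also called 5 higher, against 1), 1 with at least 5 CPM, library totals, limma-voom or the file-name term, 0 with the title-number term and 0 to 2 without 1 library. Neighbours of Pvalb, 10 genes in the main fit, had 0 lower calls throughout, where 0.876% of all tested genes were lower in the main fit. The fold change of Ppargc1a was positive at 0.12 and turned to -0.025 without Control replicate 1; without 1 library it reached 0.21, and with library totals 0.26. Of 24 further named genes that passed, 6 kept their call in every other fit that tested them, Cables1, Larp1b, Vegfd, Afm, Phyhip and Cnnm2. All of these but Cnnm2 were named for their likeness to Pvalb in the same libraries, a choice that favours genes cleanly lower in KO. Of the 24, 16 lost the call without KO replicate 2, 14 without Control replicate 4 and 18 with the title-number term. These fits have fewer libraries or residual degrees of freedom, and the cause was not tested further. In KO, Pvalb rests on 30 to 104 counts per library, which limits the precision of its level there. No paired analysis was possible because the labels give no replicate numbers shared between the groups; the title-number term marks sets of unequal make-up, 1 of them with a single library, and not pairs.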
